A study of Mus musculus with 21 samples.

Results

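The set described here held 10 genes taken by name: Atf3, Atf4, Atf5, Ddit3, Trib3, Chac1, Asns, Ppp1r15a, Ddit4 and Sesn2. They occupied 11 of the 33829 gene rows listed in the pre-treatment experiment and 11 of the 55385 listed in the delayed treatment experiment, since Ddit3 had a second row. The genes were chosen by name with earlier results in view, and the measured values behind that choice were the levels of Atf3 in the pre-treatment experiment. Those values are therefore given as a description. Test outcomes and intervals for Atf3 in that experiment are listed only for completeness. Nothing is read from them, or from a count of calls that includes Atf3 in that experiment. All 10 genes passed the filter on low counts in both experiments, among 22641 and 21922 genes tested. The second Ddit3 row (ENSMUSG00000116429) overlapped the main one and had a count of 1 in each of the 21 mice, so it was not tested.

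The integrated stress response is a shared output of several stress-sensing kinases. They phosphorylate the translation initiation factor eIF2, which lowers general protein synthesis while the messenger RNA of the transcription factor ATF4 is translated more. ATF4, with partners such as CHOP, then switches on genes for amino acid supply, feedback and, under lasting stress, cell death. Damage to mitochondria is a known trigger, and MPTP, a neurotoxin used to model Parkinson's disease, is converted in the brain to an inhibitor of mitochondrial complex I. Because ATF4 and ATF5 are controlled largely through translation, the RNA measured here does not give their protein activity.

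The samples were bulk RNA from the midbrain of male C57BL/6 mice aged 6 weeks, and the study's methods describe the tissue as nigral, dissected by hand after perfusion. Each of the 7 groups held 3 mice. In the pre-treatment experiment, control mice had water intraperitoneally for 10 days, MPTP mice had water for 5 days and then MPTP at 30 mg per kg per day for 5 days, and irisin-MPTP mice had irisin, a muscle-derived peptide, at 200 µg per kg per day for 5 days and then the same MPTP course. In the delayed treatment experiment, control mice again had 10 days of water, irisin mice had water and then irisin, MPTP mice had MPTP and then water, and MPTP-irisin mice had MPTP and then irisin, each agent for 5 days at the same doses. MPTP was thus the last agent given in the first experiment and was followed by 5 days of water or irisin in the second, so MPTP in the 2 experiments differed in timing as well as in the table it came from. In bulk tissue, fewer cells of a type and less RNA per cell cannot be told apart.

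Total counts per mouse ran from 66653781 to 75637604 in the pre-treatment experiment and from 48843585 to 77203445 in the delayed treatment experiment. Neuron markers (Rbfox3, Snap25, Syt1, Tubb3) summed to between 3834 and 4283 CPM (counts scaled to a common library size) in all mice, and the 6 dopaminergic neuron markers, Th among them, to between 443 and 820 CPM, so the labelled tissue held its defining cells. Choroid plexus markers (Ttr, Folr1, Kl, Clic6) summed to 1623 CPM in the second MPTP mouse of the first experiment and to between 9.77 and 25.4 CPM in its other mice. In the second experiment they ran from 36.8 to 1640 CPM. There they differed widely between mice of the same group, as from 36.8 to 1528 CPM with MPTP.

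Per unit of length, in the deposited FPKM values, which divide reads by gene length and library size, the 10 genes covered a wide range in the control mice. Atf4, the central transcription factor, was highest at 53.6 ± 7.68 FPKM (SD, n = 3) in the pre-treatment controls and 47.4 ± 1.70 FPKM in the delayed treatment controls. Asns, which makes asparagine, followed at 31.9 ± 2.46 and 35.9 ± 1.60 FPKM, and Ddit4, an inhibitor of mTORC1 signalling, at 31.5 ± 3.17 and 30.7 ± 6.84 FPKM. The ranges of Asns and Ddit4 overlapped in both control groups, so their order was not resolved.

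Ddit3, which encodes CHOP, was at 14.2 ± 0.992 and 14.7 ± 0.910 FPKM, apart from its neighbours in the order. Atf5, a further ATF4-like factor, was at 7.55 ± 0.675 and 8.23 ± 1.09 FPKM. Ppp1r15a, also called GADD34, brings a phosphatase to eIF2 and so ends the response, and stood at 4.77 ± 0.351 and 7.29 ± 0.523 FPKM. Sesn2, another mTORC1 inhibitor, was at 4.71 ± 0.761 and 5.39 ± 0.448 FPKM, and Chac1, which breaks down glutathione, at 3.17 ± 0.840 and 4.31 ± 0.752 FPKM. Ppp1r15a overlapped with Sesn2 in the first control group and with Atf5 in the second, and Sesn2 overlapped with Chac1 in both.

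At the bottom were Atf3, a stress-inducible transcription factor, at 0.614 ± 0.144 and 0.9753 ± 0.812 FPKM, and Trib3, a pseudokinase that restrains ATF4 and Akt, at 0.186 ± 0.0396 and 0.341 ± 0.0350 FPKM. Over all 9 mice of the pre-treatment experiment, Atf3 varied 20.5-fold in FPKM between the lowest and the highest mouse, Trib3 2.803-fold, and the other 8 genes between 1.24-fold (Asns) and 1.72-fold (Ddit4). Over the 12 mice of the delayed treatment experiment, Trib3 varied 9.22-fold, Atf3 6.55-fold and Atf4 2.44-fold. The remaining 7 lay between 1.23-fold (Asns) and 1.89-fold (Ddit4).

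**Figure D1:**
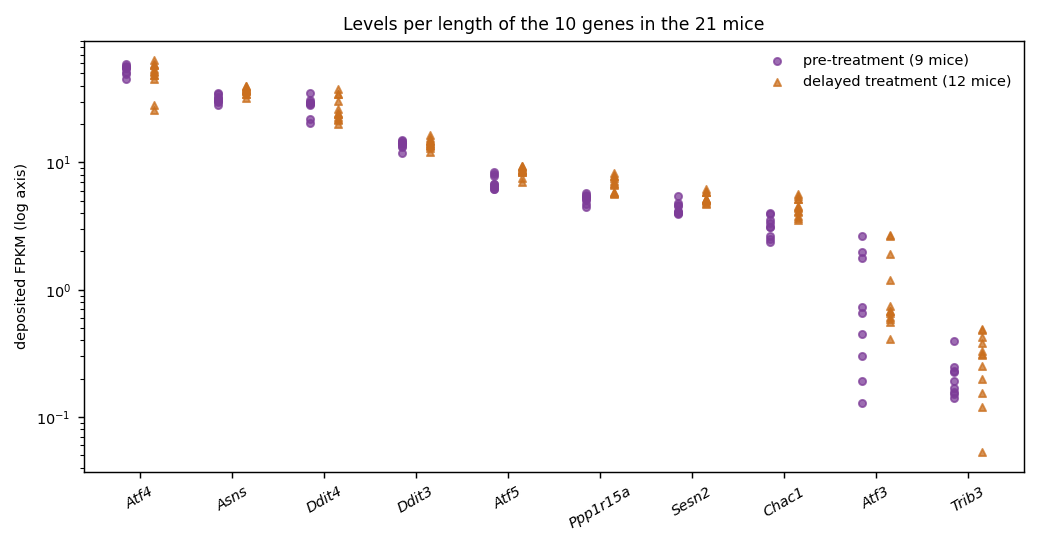
Deposited FPKM of the 10 genes (log axis), with circles for the 9 mice of the pre-treatment experiment and triangles for the 12 mice of the delayed treatment experiment, ordered by the mean of the control mice. Atf4 is highest and Trib3 lowest, Atf3 spreads over 20.5-fold in the first experiment, and a pair of delayed treatment mice sits below the rest for Atf4.

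Promoter sequences are shown for the genes whose windows held letters that ATF4 or related factors are known to bind. RefSeq windows on GRCm38.p6, from 250 bases before to 50 after the start, were found for all 10 genes (11 windows). The ATF4 composite element was searched as TGATGNAA on both strands and was present in 4 of the 10 genes, against 4.51% of all 27025 genes (3.97% of all 32851 windows). It stood at positions −110 to −103 from the RefSeq start in Atf3, −193 to −186 in Chac1, −23 to −16 in Asns, and 15 to 22 after the start in Trib3. In the GENCODE models these places were an intron of the longer Atf3 gene, upstream of Chac1 and Trib3, and in a UTR of Asns. The windows read along the gene's strand, with the element in capitals, and lie at chr1:191183425-191183454 (minus), chr2:119351038-119351067 (plus), chr6:7693214-7693243 (minus) and chr2:152344028-152344057 (minus).
Atf3: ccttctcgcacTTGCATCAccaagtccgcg
Chac1: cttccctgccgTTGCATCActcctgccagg
Asns: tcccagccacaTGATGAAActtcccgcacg
Trib3: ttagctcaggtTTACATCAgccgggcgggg

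A cyclic AMP response element, searched as TGACGTCA on both strands, was present in 1 of the 10 genes, Ppp1r15a, at positions −12 to −5, against 2.03% of all genes (1.79% of all windows). An AP-1 element, searched as TGANTCA on both strands, was present in Ddit3 alone, at −242 to −236, against 8.97% of all genes (7.81% of all windows). Both are shown along the gene's strand with the element in capitals, at chr7:45526269-45526291 (minus) and chr10:127290543-127290568 (plus), upstream of the genes in GENCODE.
Ppp1r15a: cgcctctccggTGACGTCAgcac
Ddit3: cgcgcgcaTGACTCActcacctcctc

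The spread of Atf3 in the pre-treatment experiment followed the groups. Control mice had 1.10, 1.83 and 1.58 CPM, MPTP mice had 4.35, 6.30 and 4.85 CPM, and irisin-MPTP mice had 0.480, 0.746 and 0.316 CPM. All MPTP mice were above all controls, and all irisin-MPTP mice were below them. These levels rested on raw counts of 74 to 124 in controls, 302 to 440 with MPTP and 23 to 55 with irisin before MPTP.

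The group means were 1.51 ± 0.369 CPM in control mice, 5.17 ± 1.02 CPM with MPTP and 0.514 ± 0.217 CPM with irisin before MPTP (SD, n = 3 each). As log2 fold changes, this was 1.78 (standard error 0.33) for MPTP against control, −3.32 (standard error 0.35) for irisin-MPTP against MPTP and −1.55 (standard error 0.34) for irisin-MPTP against control. On a linear scale the level was 10.0-fold lower with irisin before MPTP than with MPTP alone. The MPTP mouse with the highest Atf3 was also the one with 1623 CPM of choroid plexus markers, and without that mouse the log2 fold changes were 1.61 for MPTP against control and −3.16 for irisin-MPTP against MPTP.

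**Figure D2:**
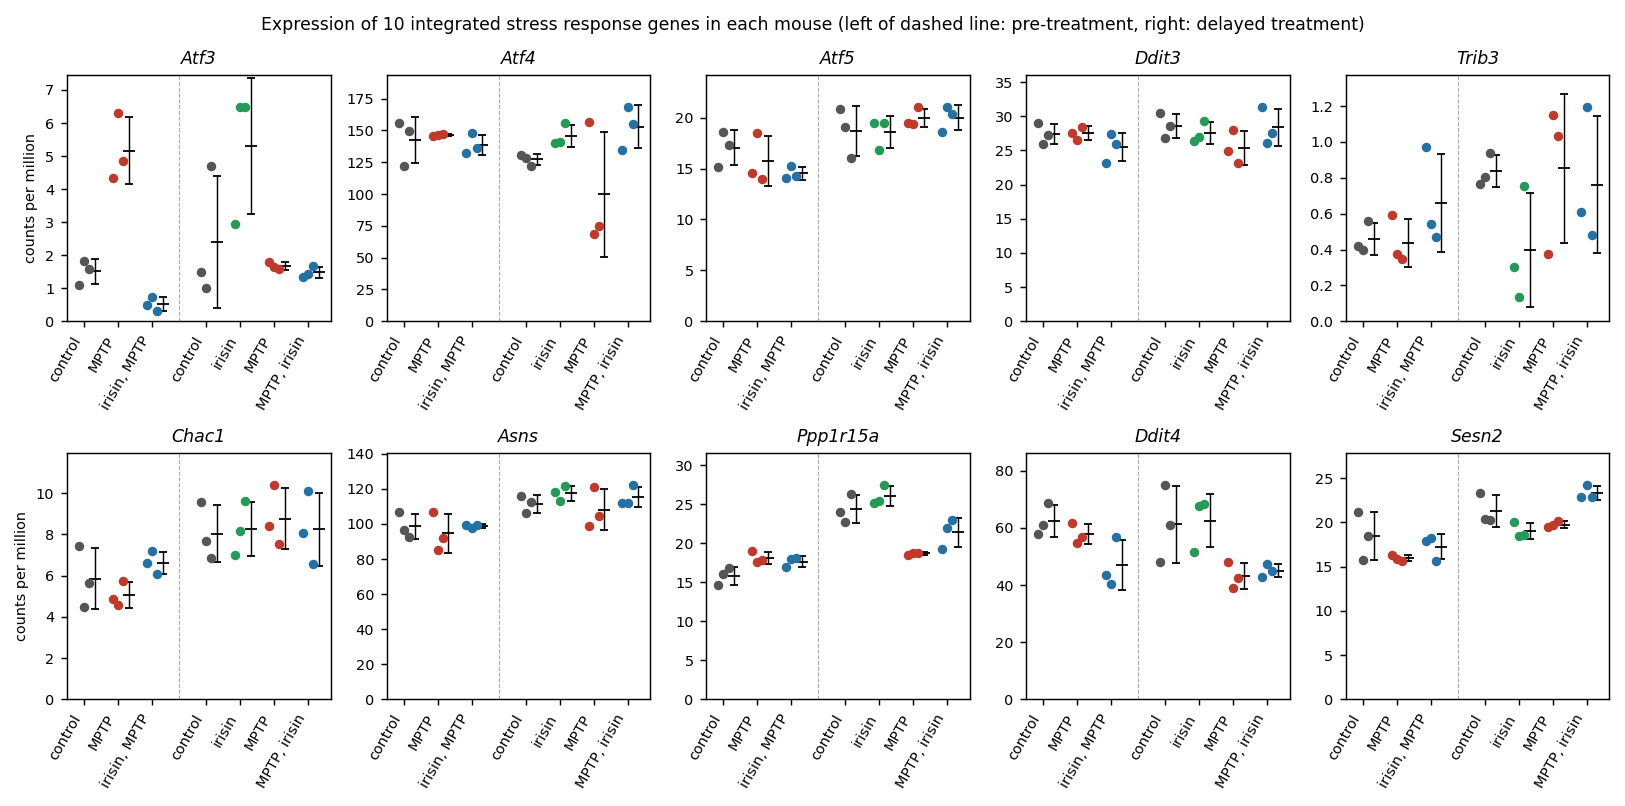
CPM of each of the 10 genes in each mouse (points) with the mean and SD of the 3 mice of a group (black bars), pre-treatment groups left of the dashed line and delayed treatment groups right of it. Only for Atf3 do the 3 pre-treatment groups separate completely, and in the delayed treatment MPTP group 2 of 3 mice stand far below the third for Atf4.

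In the delayed treatment experiment, whose mice played no part in choosing the set, Atf3 did not follow MPTP. Control mice had 1.49, 1.01 and 4.70 CPM, MPTP mice 1.80, 1.63 and 1.58 CPM, MPTP-irisin mice 1.34, 1.43 and 1.66 CPM, and irisin mice 2.93, 6.49 and 6.47 CPM. The third control mouse lay within the range of the irisin mice, so those groups overlapped, and the MPTP and MPTP-irisin mice lay within the range of the controls.

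Compared with control, the log2 fold change of Atf3 was −0.52 for MPTP (95% interval −1.60 to 0.55), −0.70 for MPTP-irisin (−1.79 to 0.38) and 1.14 for irisin alone (0.07 to 2.21). None passed the threshold of 0.05 in the quasi-likelihood test of edgeR, Benjamini-Hochberg adjusted over all genes (adjusted p = 0.839, 0.706 and 0.545). Without the third control mouse the values became 0.42, 0.24 and 2.08, so the first and second changed sign, and irisin alone still did not pass (edgeR adjusted p = 0.117; 0.117 to 0.845 over the alternatives). Irisin after MPTP against MPTP was at −0.18 (−1.26 to 0.91), and the interaction of irisin and MPTP at −1.32 (standard error 0.69, edgeR adjusted p = 0.908). Without the third control mouse the interaction was −2.26 and still did not pass (edgeR adjusted p = 0.343; 0.343 to 0.999 over the alternatives).

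The other 9 genes had smaller log2 fold changes than Atf3 in the pre-treatment experiment. For MPTP against control their log2 fold changes lay between −0.21 and 0.19, and for irisin-MPTP against control between −0.41 and 0.52. Of these 9, 0 passed edgeR's adjusted threshold in either comparison, where 0.0221% and 0.0707% of all genes did. DESeq2 also called 0 of the 9 in both, where it called 0.343% and 0.758% of the genes it gave an adjusted p. At an unadjusted p under 0.05 in edgeR there were 0 of the 9 for MPTP against control (6.03% of all genes) and 1, Ddit4, for irisin-MPTP against control (7.12% of all genes). For irisin-MPTP against MPTP, the comparison in view when the genes were chosen, 0 of the 9 passed in edgeR (0.0707% of all genes). DESeq2 also called 0 of the 9 (0.707% of the genes it gave an adjusted p). At an unadjusted p under 0.05 in edgeR there was 1 of the 9, Ddit4 (6.22% of all genes). Atf3 itself passed there with both tools, and nothing is read from that call, since its values were behind the choice of the set. The median log2 fold change of the 10 genes, Atf3 included, was −0.07, −0.06 and −0.07 in the 3 comparisons (MPTP against control, irisin-MPTP against MPTP, irisin-MPTP against control), against a median of 0.00 over all genes tested in each.

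Ddit4 was the second gene with lower values after irisin before MPTP. Control mice had 57.8, 60.8 and 68.6 CPM, MPTP mice 61.6, 54.9 and 56.9 CPM, and irisin-MPTP mice 43.7, 40.3 and 56.9 CPM. All irisin-MPTP mice lay below all controls, by a log2 fold change of −0.41 (standard error 0.13) that did not pass (edgeR adjusted p = 0.544). Groups without overlap were seen for 13.6% of all genes tested in that comparison and for 2 of the 9 genes other than Atf3 (Ddit4 lower, Ppp1r15a higher).

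Ppp1r15a was at 14.6, 16.1 and 16.8 CPM in control mice, at 19.0, 17.6 and 17.8 CPM with MPTP and between 16.9 and 18.1 CPM with irisin before MPTP. Both MPTP-treated groups lay above the controls, at log2 fold changes of 0.19 (standard error 0.09, edgeR adjusted p = 0.823) and 0.16 (standard error 0.09, edgeR adjusted p = 0.776). In MPTP against control, 1 of the 9 genes other than Atf3 (Ppp1r15a) had groups without overlap, where 11.6% of all genes tested did.

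Among the ATF4 targets, Asns stayed close to its control level in this experiment, while Chac1 and Trib3 were less precise. Asns was between 85.3 and 107 CPM in all 9 mice, with a log2 fold change of −0.06 for MPTP against control (95% interval −0.27 to 0.15). Chac1 was at 4.48 to 7.43 CPM in control mice, 4.56 to 5.75 CPM with MPTP and 6.10 to 7.18 CPM with irisin before MPTP, the last 2 groups not overlapping, as for 14.2% of all genes tested. Trib3 had 26 to 71 reads per mouse. Its 95% interval for MPTP against control ran from −1.001 to 0.85 on the log2 scale, so the values were compatible with changes anywhere in that interval. Ddit3, the CHOP gene, was between 23.2 and 29.0 CPM in all 9 mice (log2 fold change 0.01 for MPTP against control, interval −0.19 to 0.21). Atf4 was between 122 and 156 CPM, Atf5 between 14.0 and 18.6 CPM and Sesn2 between 15.7 and 21.2 CPM.

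Atf3 and Chac1 held the same 8 letters of the ATF4 element. For irisin-MPTP against MPTP Atf3 was at −3.32 and Chac1 at 0.39 (standard error 0.19) on the log2 scale. Asns, with the element in the other orientation, was at 0.06 (standard error 0.09) and Trib3 at 0.60 (standard error 0.40). A match is a description of the letters only.

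**Figure D3:**
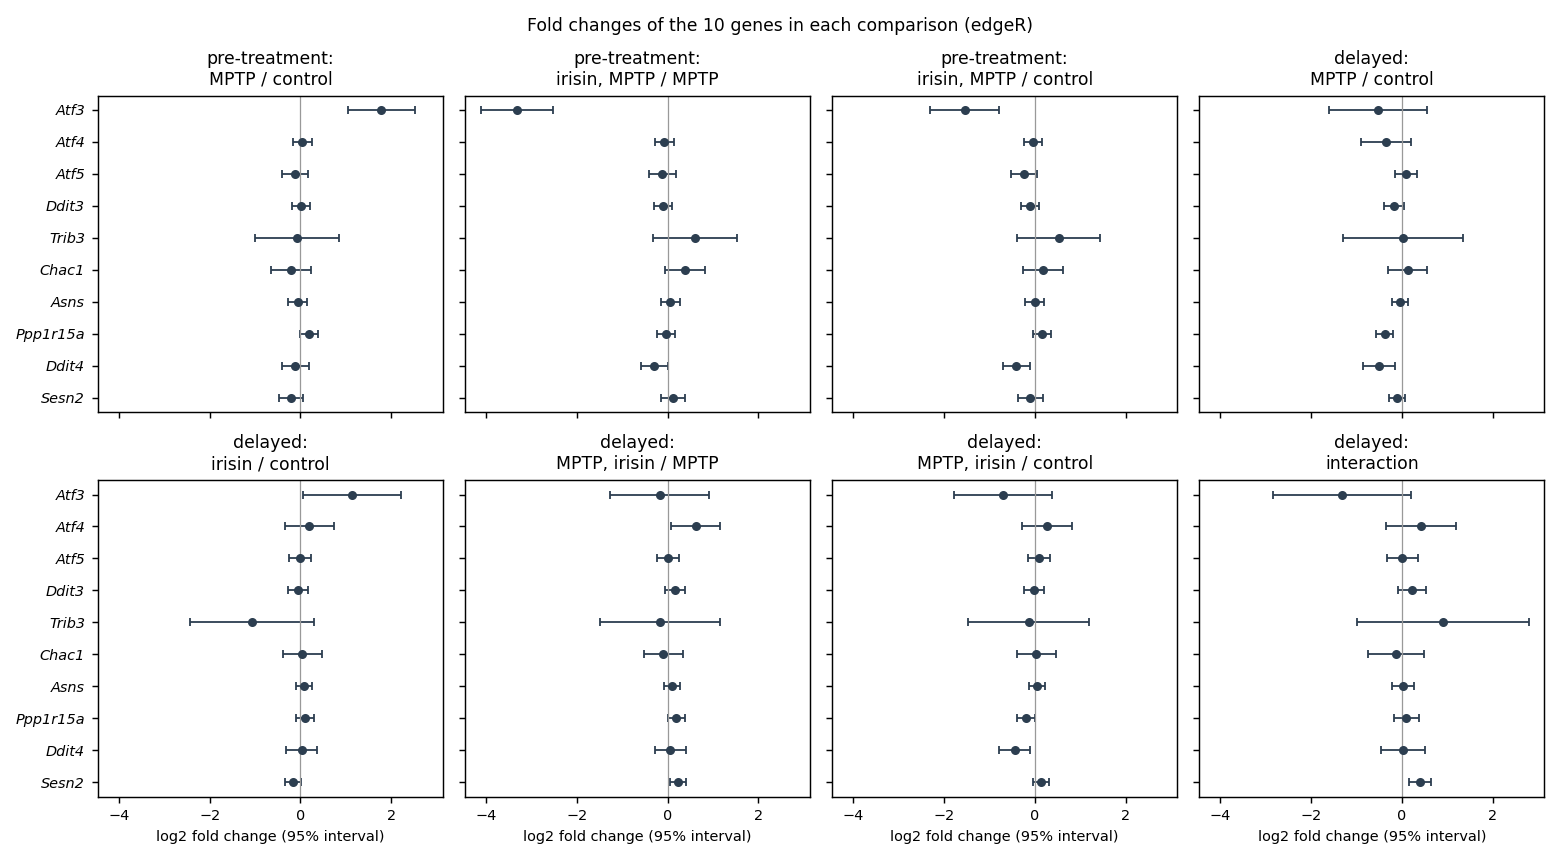
Log2 fold changes of the 10 genes in the 8 comparisons (points, with 95% intervals from edgeR), each panel naming the group in the numerator and the group it was compared with. Atf3 lies far from 0 in the 3 pre-treatment panels, where its values and intervals are a description only, since they were behind the choice of the set. The long intervals belong to Atf3 and Trib3, and most other points lie within 0.5 of 0.

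In the delayed treatment experiment, 0 of the 10 genes passed edgeR's adjusted threshold for MPTP against control, where 0.132% of all genes did. At an unadjusted p under 0.05 there were 2 (8.33% of all genes), Ppp1r15a and Ddit4, both lower, and DESeq2 called 1, Ppp1r15a, where it called 0.773% of the genes it gave an adjusted p. Ppp1r15a was at 24.1, 22.7 and 26.3 CPM in control mice, 18.5, 18.8 and 18.8 CPM with MPTP, 19.3, 21.9 and 23.0 CPM with MPTP and then irisin, and 25.1, 25.5 and 27.5 CPM with irisin alone. All MPTP mice were below all controls and below all MPTP-irisin mice. In MPTP against control, 2 of the 10 genes (Ppp1r15a and Sesn2) had groups without overlap, where 16.2% of all genes tested did. The log2 fold change for MPTP against control was −0.38 (standard error 0.09). It did not pass in edgeR (adjusted p = 0.247) and passed in DESeq2 (adjusted p = 0.0308; 0.0308 to 0.579 over the alternatives). For irisin after MPTP against MPTP it was 0.19 (standard error 0.09, edgeR adjusted p = 0.9995).

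Ddit4 was at 47.9, 74.98 and 60.9 CPM in control mice, 48.2, 39.1 and 42.6 CPM with MPTP, 42.8, 47.4 and 44.9 CPM with MPTP and then irisin, and 51.7, 67.6 and 68.3 CPM with irisin alone. All MPTP-irisin mice lay below all controls, while 1 of the 3 MPTP mice (48.2 CPM) lay above the lowest control (47.9 CPM). Log2 fold changes against control were −0.50 (standard error 0.16, edgeR adjusted p = 0.408) for MPTP and −0.44 (standard error 0.16, edgeR adjusted p = 0.447) for MPTP-irisin, and that for irisin alone was 0.03 (95% interval −0.31 to 0.37). Dopaminergic neuron markers, summed over 6 genes, were at 653.3 to 686.5 CPM in these controls, 443.1 to 569.4 CPM with MPTP and 450.0 to 526.4 CPM with MPTP and then irisin, and their part in the Ppp1r15a and Ddit4 values was not tested.

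Sesn2 was at 23.3, 20.3 and 20.2 CPM in control mice, 20.1, 18.5 and 18.6 CPM with irisin alone, 19.4, 19.6 and 20.2 CPM with MPTP and 22.8, 24.2 and 22.8 CPM with MPTP and then irisin. Irisin mice were below controls without overlap, and MPTP-irisin mice were above MPTP mice without overlap. Of the 10 genes, 3 had no overlap for irisin against control (15.1% of all genes tested did), 2 for MPTP-irisin against MPTP (10.7%) and 2 for MPTP-irisin against control (14.6%). The log2 fold changes were −0.16 (standard error 0.08) and 0.24 (standard error 0.08), and their difference, the interaction, was 0.40 (standard error 0.11, edgeR adjusted p = 0.764; 0.288 to 0.999 over the alternatives). For the interaction 0 of 10 genes passed in edgeR, against 0.0411% of all genes, with 1 (Sesn2) at an unadjusted p under 0.05 (5.57% of all genes) and 0 in DESeq2 (0.248%).

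Atf4 showed its widest spread in the delayed treatment MPTP mice, at 156, 68.4 and 74.6 CPM. Control mice had 131, 129 and 122 CPM, irisin mice 140, 141 and 156 CPM, and MPTP-irisin mice 135, 169 and 155 CPM. The highest of the 2 low mice was thus 1.64-fold below the lowest of the other 10 mice, while the first MPTP mouse was above every control. From counts per gene it cannot be told whether these 2 libraries held less Atf4 RNA or had fewer of its reads assigned to the gene. Over the whole group, MPTP against control was at a log2 fold change of −0.35 (standard error 0.25, edgeR adjusted p = 0.767), and MPTP-irisin against MPTP at 0.62 (standard error 0.25, edgeR adjusted p = 0.9995).

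These values depended on the first MPTP mouse. Without it, Atf4 was at −0.83 (edgeR adjusted p = 0.0127; 0.0127 to 0.962 over the alternatives) for MPTP against control and at 1.10 (edgeR adjusted p = 0.00539; the lowest over the alternatives) for MPTP-irisin against MPTP. The other genes of the set did not share 1 pattern over these mice. Ddit4 was at 39.1 and 42.6 CPM in the 2 mice with low Atf4, below the first MPTP mouse (48.2 CPM) and below every control. Ppp1r15a and Sesn2 were below every control in all 3 MPTP mice, the first included. Asns was at 98.6, 121 and 105 CPM in the 3 MPTP mice against 106 to 116 CPM in controls, Chac1 at 8.40, 10.4 and 7.52 CPM against 6.85 to 9.57 CPM, and Trib3 at 0.377, 1.148 and 1.03 CPM against 0.766 to 0.936 CPM. Choroid plexus markers summed to 36.8, 85.4 and 1528 CPM in those 3 MPTP mice, so the low mice were not alike in them, and neuron markers to 3834, 3981 and 3952 CPM.

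Irisin alone against control gave 0 of 10 genes past edgeR's adjusted threshold, with 0.109% of all genes, 1 (Atf3) at an unadjusted p under 0.05 (8.97% of all genes) and 0 in DESeq2 (0.608%). Trib3, at 0.304, 0.134 and 0.752 CPM, lay below all controls but on 8 to 43 reads, at a log2 fold change of −1.07 (95% interval −2.43 to 0.29). It was −1.93 without the third irisin mouse and −0.66 without the second. MPTP-irisin against MPTP gave 0 of 10, with 0.00456% of all genes, 3 (Atf4, Ppp1r15a and Sesn2, all higher) at an unadjusted p under 0.05 (3.9% of all genes) and 0 in DESeq2 (0.14%). MPTP-irisin against control gave 0 of 10, with 0.109% of all genes, 1 (Ddit4) at an unadjusted p under 0.05 (9.31% of all genes) and 0 in DESeq2 (0.633%). The median log2 fold change of the 10 genes ran from −0.14 for MPTP against control to 0.08 for MPTP-irisin against MPTP, where the median of all genes was 0.00 in each. Asns, Atf5 and Ddit3 stayed between 98.6 and 122 CPM, 16.1 and 21.1 CPM, and 23.1 and 31.4 CPM in all 12 mice.

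The wider pathway was read from 7 lists with 70 genes, of which 68 were tested in each experiment. They cover the eIF2 kinases, eIF2 and its exchange factor eIF2B, partners of ATF4, amino acid and one-carbon enzymes, amino acid transporters, aminoacyl-tRNA synthetases, other ATF4 or CHOP targets, and mitochondrial chaperones and proteases. In edgeR, 0 of the 68 passed the adjusted threshold in any of the 8 comparisons, where 0.00456% to 0.132% of all genes did. DESeq2 called 1 gene for irisin-MPTP against control (Gpt2, higher), where it called 0.758% of the genes it gave an adjusted p. It called 2 for delayed treatment MPTP against control (Slc1a5 and Ppp1r15b, both higher), with 0.773% of all. It called 1 for MPTP-irisin against MPTP (Slc1a5, lower), with 0.14% of all, and 1 for the interaction (Slc1a5, negative), with 0.248%. In the other 4 comparisons it called 0, with 0.343% to 0.707% of all. These 3 genes are named after their values were seen. At an unadjusted p under 0.05 in edgeR, MPTP against control had 1 gene higher and 0 lower in the first experiment, where 6.03% of all genes passed, and 5 higher and 0 lower in the second, where 8.33% did. Irisin-MPTP had 3 higher and 4 lower against MPTP (6.22% of all genes) and 2 higher and 2 lower against control (7.12%). In the delayed treatment experiment, irisin alone had 7 higher and 2 lower (8.97% of all genes). MPTP-irisin had 3 higher and 1 lower against MPTP (3.9%) and 4 higher and 1 lower against control (9.31%). The interaction had 0 higher and 1 lower (5.57%).

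By list, the median log2 fold change for MPTP against control in the pre-treatment experiment was −0.01 for the 15 genes of eIF2 control, 0.21 for the 4 partners of ATF4 with Nupr1, −0.09 for the 10 amino acid and one-carbon enzymes, 0.09 for the 9 transporters, 0.02 for the 13 synthetases with Xpot, −0.01 for the 12 other targets and 0.00 for the 5 mitochondrial chaperones and proteases. In the delayed treatment experiment the same lists stood at −0.03, 0.03, 0.02, 0.04, 0.07, 0.04 and −0.02. The medians of the enzymes and of the transporters were within 0.1 of 0 in both, with members on either side (3 enzymes above 0 and 7 below in the first experiment, 7 and 3 in the second). For irisin-MPTP against MPTP the medians were 0.01, −0.46, 0.07, −0.01, 0.04, 0.04 and −0.01. The 4 partners of ATF4 with Nupr1 (Cebpb, Cebpg, Jdp2 and Nupr1), the shortest of the lists, were thus the list farthest from 0. All 4 were lower, 2 without overlap of the groups (14.2% of all genes tested), and 0 passed the adjusted threshold. Their sum was 74.8, 73.2 and 44.2 CPM in irisin-MPTP mice, 83.0 to 93.2 CPM in MPTP mice and 46.1 to 83.6 CPM in controls.

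Atf3 is also an immediate-early gene, induced by growth factors and neuronal activity, and a list of 26 other immediate-early genes was read beside it. The list was chosen with earlier results of these data known, so its counts are a description. Summed over the list, control mice had 364.6 to 463.7 CPM, MPTP mice 434.5 to 516.9 CPM and irisin-MPTP mice 248.7 to 274.6 CPM. The irisin-MPTP mice were lowest for both the list and Atf3. For irisin-MPTP against MPTP, 7 of the 26 genes passed edgeR's adjusted threshold, all lower, where 0.0707% of all genes passed. The median of the list was −0.85 on the log2 scale. The 5 with the smallest p were Klf2, Klf4, Apold1, Btg2 and Jun. For irisin-MPTP against control, 5 passed, all lower (Fos, Jun, Klf2, Btg2 and Apold1), where 0.0707% of all genes passed, and the list's median was −0.84.

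For MPTP against control in that experiment 1 of the 26, the zinc-finger factor Klf4, passed, where 0.0221% of all genes did. Klf4 was at a log2 fold change of 1.39 (standard error 0.14, edgeR adjusted p = 0.0211). The list's median was 0.15, and the groups' sums overlapped while the groups' Atf3 values did not. In the delayed treatment experiment the highest sum among the controls, 729.9 CPM, was in the same mouse that had the highest Atf3 of that group, and the irisin mice had 600.5 to 721.0 CPM. MPTP mice had 385.6 to 473.7 CPM, while their Atf3 lay within the control range. Against control, 3 of the 26 genes were lower past the threshold in these mice (Btg2, Zfp36 and Apold1), where 0.132% of all genes passed. The part of the immediate-early genes in the Atf3 values was not tested.

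**Figure D4:**
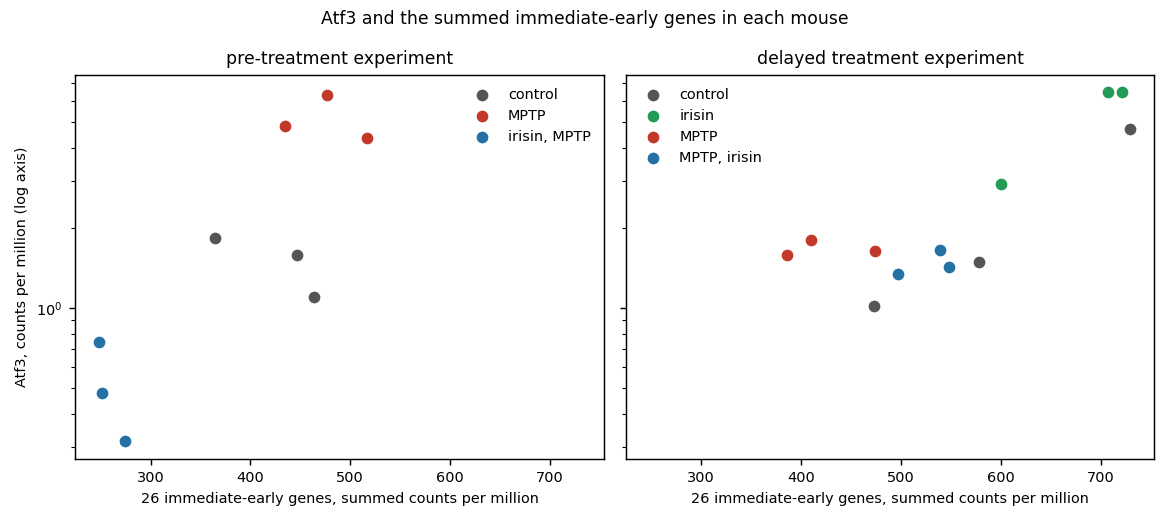
Atf3 in CPM (log axis) against the summed CPM of 26 immediate-early genes, one point per mouse, coloured by group, for each experiment. Irisin-MPTP mice are lowest on both axes in the first experiment, and in the second the 4 mice with the highest sums (600.5 to 729.9 CPM) have the highest Atf3.

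Red blood cell markers were also lower with irisin before MPTP, at 230.9 to 455.2 CPM against 529.6 to 826.3 CPM in controls and 549.1 to 810.4 CPM with MPTP. Against MPTP this came with 0 of the 5 past edgeR's adjusted threshold (0.0707% of all genes) and 5 of 5 lower at an unadjusted p under 0.05 (6.22% of all genes). Their part in the Atf3 difference was not tested. The 12 glucocorticoid-responsive genes summed to 474.8 to 501.6 CPM in control mice, 607.1 to 699.0 CPM with MPTP and 612.6 to 811.0 CPM with irisin before MPTP. For irisin-MPTP against control 2 of the 12 (Plin4 and Hif3a) were higher past the threshold, where 0.0707% of all genes passed. The 9 hypoxia-responsive genes, a group to which Ddit4 is often added, had a median log2 fold change of 0.05 for irisin-MPTP against control, the comparison in which Ddit4 was at −0.41.

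The 5 genes whose pattern was most like that of Atf3 were found among 21153 genes tested in both experiments, by the root mean square difference in log2 fold change against their own control over the 5 treated groups. They were Eme1 (0.56), Gm48510 (0.63), Tslp (0.63), Klf4 (0.64) and Gm34788 (0.64). Klf4 was at 1.39 for MPTP and −0.64 for irisin-MPTP in the pre-treatment experiment, and at −0.37, 0.56 and 0.14 for MPTP, irisin and MPTP-irisin in the delayed treatment experiment. The other 9 genes of the set were not among the 5. Nothing is read from this, since only 5 of 21153 genes were listed. The pattern also uses the pre-treatment Atf3 values that were behind the choice of the set.

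Some of the genes share sequence positions with neighbours. Ddit3 (ENSMUSG00000025408, chromosome 10, 127290774 to 127296288) overlapped Mars on the opposite strand by 68 bases, and Mars had 2131 to 3751 counts per mouse. Atf5 (ENSMUSG00000038539, chromosome 7, 44812256 to 44816658) overlapped Nup62 (1140 to 2098 counts per mouse) on the opposite strand by 571 bases. Ppp1r15a (ENSMUSG00000040435, chromosome 7, 45522916 to 45526268) overlapped Tulp2 (0 to 125 counts), also on the opposite strand, by 717 bases. Sesn2 (ENSMUSG00000028893, chromosome 4, 132492032 to 132510501) overlapped Gm12981 (0 to 10 counts) on the same strand by 6089 bases. Reads from genes that overlap on opposite strands cannot be told apart where counting ignored strand, and the strand setting was not given in the sources used here. Atf3 (ENSMUSG00000026628) lies at 191170296 to 191218039 on chromosome 1, Atf4 (ENSMUSG00000042406) at 80255184 to 80257541 on chromosome 15 and Ddit4 (ENSMUSG00000020108) at 59949669 to 59951834 on chromosome 10, all on GRCm38, without an overlapping gene that had a count in any mouse.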

How the data were processed

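RNA from midbrain of 21 mice was sequenced on an Illumina instrument. The authors deposited 1 table per experiment with raw read counts per gene, made with featureCounts according to the study's methods, and FPKM values, which divide by gene length and library size. The submitters' processing notes name HISAT, StringTie, edgeR and the build mm9, whereas the listed gene positions match GRCm38. The annotation release and strand setting were not given in the sources used here. Each experiment was fitted on its own.

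Counts were tested with edgeR 4.0.16 (R 4.3.3): filterByExpr (least count 10, least total 15), TMM scaling, and the two-sided quasi-likelihood test with all groups of the experiment in 1 fit, Benjamini-Hochberg adjusted over all genes tested at a threshold of 0.05. CPM are TMM-scaled. DESeq2 1.42.0, median ratio scaling, no filter, only the compared groups, a replicate block and leaving out each mouse were the alternatives. The scripts were tested on simulated MPTP and control groups of each experiment. Of 100 genes changed 2-fold, edgeR recovered 40 (pre-treatment) and 50 (delayed treatment), and of 100 changed 4-fold 85 and 81, with 7 and 5 false calls. DESeq2 recovered 64 and 67 at 2-fold, with 67 and 58 false calls beside 156 and 153 right ones. A gene that did not pass in edgeR may thus have changed, and a call by DESeq2 alone may be false. The simulated spread came from edgeR's own estimates, and genes of very low level were not changed. DESeq2 was given the filtered genes there (22641 and 21922) but was run without the filter on the real counts. The simulated rates are therefore not the rates of the calls reported here. Groups and replicate numbers came from the labels. Libraries of a group all differed by more than sampling noise. The labels number the mice but name no litter or cage, and p-values set group differences against the spread between these samples.

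The 10 genes, the pathway, marker and motif lists and the rule for genes most like Atf3 (smallest root mean square difference) were chosen with earlier results of these data known. Named were the 10 genes everywhere and, of the lists, genes past the adjusted threshold, at most 5 per list and comparison.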

Additional observations from a re-analysis of the deposited data

Results flagged for a closer look

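Ppp1r15a lay on opposite sides of control under MPTP in the 2 experiments without overlap of the groups, with all MPTP mice above all controls in the pre-treatment experiment (log2 fold change 0.19) and all below in the delayed treatment experiment (log2 fold change −0.38). Groups without overlap were seen for 11.6% of all genes tested in the first of these comparisons and 16.2% in the second. Neither change passed in edgeR (adjusted p = 0.823 and 0.247), while DESeq2 called the second. The experiments are separate tables and the difference was not tested.

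Sesn2 lay below all controls with irisin alone (log2 fold change −0.16) and above all MPTP mice with irisin after MPTP (log2 fold change 0.24). The test of this difference did not pass (interaction 0.40, edgeR adjusted p = 0.764). Groups without overlap were seen for 15.1% of all genes tested with irisin alone and 10.7% with irisin after MPTP.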

How the results depend on the processing

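Of 93 alternative counts of genes called, 86 stayed as reported. DESeq2 called 1 gene where edgeR called 0 for pre-treatment MPTP against control (Atf3), irisin-MPTP against control (Atf3) and delayed treatment MPTP against control (Ppp1r15a). Nothing is read from the calls of Atf3 in the pre-treatment experiment, whose values were in view when the genes were chosen. Leaving out 1 mouse gave 0 to 1 genes for irisin-MPTP against MPTP (Atf3 was lost without irisin-MPTP replicate 1, at a log2 fold change of −3.27, or replicate 3, at −3.07), and 0 to 1 for delayed treatment MPTP against control and for MPTP-irisin against MPTP (Atf4 was gained without MPTP replicate 1).

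Of 930 alternative log2 fold changes of the 10 genes, 852 kept their direction and side of the threshold, 71 changed sign, 2 lost a call and 5 gained one. The sign changed with only the compared groups for Asns in irisin-MPTP against control (−0.0016), with no filter for Atf5 in MPTP-irisin against MPTP (−0.012) and in the interaction (−0.012) and for Asns in the interaction (−0.0028), in DESeq2 for Atf5 with irisin alone (0.0010) and with the replicate block for Trib3 in delayed treatment MPTP against control (−0.064). Leaving out 1 mouse at a time gave log2 fold changes on both sides of 0 as follows. For pre-treatment MPTP against control, −0.16 to 0.012 for Asns, −0.061 to 0.099 for Atf4, −0.029 to 0.042 for Ddit3 and −0.36 to 0.092 for Trib3. For irisin-MPTP against MPTP, −0.012 to 0.16 for Asns and −0.19 to 0.018 for Atf5. For irisin-MPTP against control, −0.043 to 0.054 for Asns, −0.14 to 0.023 for Atf4 and −0.20 to 0.0051 for Sesn2. For delayed treatment MPTP against control, −0.14 to 0.017 for Asns, −0.89 to 0.42 for Atf3, −0.0016 to 0.18 for Atf5, −0.014 to 0.27 for Chac1 and −0.25 to 0.38 for Trib3. For irisin alone against control, −0.10 to 0.077 for Atf5, −0.083 to 0.18 for Chac1 and −0.12 to 0.20 for Ddit4. For MPTP-irisin against MPTP, −0.034 to 0.054 for Atf5, −0.26 to 0.053 for Chac1, −0.0087 to 0.14 for Ddit4 and −0.65 to 0.11 for Trib3. For MPTP-irisin against control, −1.07 to 0.24 for Atf3, −0.13 to 0.18 for Chac1, −0.091 to 0.047 for Ddit3 and −0.62 to 0.11 for Trib3. For the interaction, −0.042 to 0.11 for Asns, −0.072 to 0.11 for Atf5, −0.30 to 0.011 for Chac1 and −0.14 to 0.18 for Ddit4.

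Same-numbered mice did not deviate together (correlations of deviations from group means between −0.10 and 0.17 over 9 pairs in the pre-treatment experiment and between −0.088 and 0.053 over 18 pairs in the delayed treatment experiment), so the numbers are not taken as pairs, and the replicate block left the number of genes called at 0, or 1 for irisin-MPTP against MPTP, in the 8 comparisons. Over all genes, calls with the replicate block were 2, 8 and 2 in the 3 pre-treatment comparisons (5, 16 and 16 without it) and 17, 14, 1, 13 and 7 in the 5 delayed treatment comparisons (29, 24, 1, 24 and 9 without it). With 3 mice per group, Trib3 on 8 to 90 reads and Atf3 on 23 to 440 reads are the least precise of the 10. The causes of these changes were not tested.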
